A study of Drosophila melanogaster with 4 samples.

Results

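The regions described here are the stretches of the Drosophila melanogaster X chromosome that were called enriched for H3K27me3, trimethylation of lysine 27 of histone H3. They were taken by position alone, as every region listed on the sequence X and none on the separate heterochromatic scaffold XHet. There were 209 of them among the 1486 regions of ChIP replicate 1, 198 among the 1459 regions of ChIP replicate 2, and 361 among the 2279 regions of a list deposited for the series as a whole. In all 3 lists together, 768 of 5224 regions lay on X. XHet, 204112 bp long, held no region in any list.

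The material was chromatin of whole embryos of the wild-type strain Oregon-R (Oregon-R-modENCODE), staged at 14 to 16 h. Of the 4 samples, 2 are ChIP libraries and 2 are inputs, and the labels pair 1 input with the region list of each ChIP library. The labels give neither the sex of the embryos nor whether the replicates came from separate collections, so the spread between replicates may be technical. Whole embryos mix cell types, and a mark carried by fewer cells and less mark per cell cannot be told apart in these lists.

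H3K27me3 is written by the E(z) subunit of Polycomb repressive complex 2 and bound by the Polycomb protein of complex 1. In flies these complexes assemble at Polycomb response elements, and the mark spreads from there over broad domains that keep developmental regulator genes silent. The X carries several genes known as Polycomb targets, among them cut, bifid, runt and the proneural genes of the achaete-scute complex. None of the regions below is assigned to a gene, because the gene table used here belongs to another release of the genome than the lists. All positions are on X in FlyBase Release 5, as named in the file headers, and each score is the authors' own value for a region, on a scale that the sources used here do not give.

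Most of the called sequence of X lay in a small number of long H3K27me3 domains. In replicate 1 its regions covered 2.26 Mb, or 10.1% of the arm, and in replicate 2 they covered 2.33 Mb, or 10.4%. Each replicate held 38 regions of at least 10 kb, called broad here, and 12 of at least 50 kb. The broad regions took up 79.1% of the called bases of X in replicate 1 and 80.8% in replicate 2. Those of at least 50 kb alone held 53.9% and 54.8%. The shortest class, under 2 kb, had 82 members in replicate 1 and 73 in replicate 2, and these held 5.81% and 4.99% of the called bases.

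Broad regions were sparser on X than on the other large arms, 2L, 2R, 3L and 3R, and wider on average. Broad regions numbered 1.69 per Mb on X in both replicates, against 2.62 and 2.73 per Mb over the other large arms. Their mean width was 48.3 ± 1.8 kb on X and 35.5 ± 0.065 kb on the other large arms (SD, n = 2 libraries). Of the 4 other large arms, 2L came closest to X, with broad regions of 41.1 ± 0.62 kb (SD, n = 2). Regions of at least 50 kb held 54.4% ± 0.65 of the called bases on X, against 37.3% ± 0.048 on the other large arms (SD, n = 2). By arm, that share was 45.3% on 2L, 42.7% on 3R, 29.9% on 2R and 28.6% on 3L. In each of these 3 measures X lay outside the range of the 4 other large arms in both libraries. In the series list the share in regions of at least 50 kb was nearly equal on X and 2L, at 48.6% and 48.5%. Other measures of size did not set X apart in this way. Regions of at least 50 kb numbered 0.535 per Mb on X in both replicates, against 0.507 and 0.528 over the other large arms, and they were denser on 3R and 2L than on X. The widest region of X, 158 kb in both replicates, was exceeded on 3L, 3R and 2L, where the widest of replicate 1 spanned 205, 186 and 178 kb. The median width over all regions was lower on X, 2229 and 2554.5 bp, than over the other large arms, 2633 and 2766 bp.

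Counting regions of every width, X held 9.08 ± 0.35 per Mb and the other large arms 12.8 ± 0.12 per Mb (SD, n = 2). The called share was 10.2% ± 0.24 on X and 12.5% ± 0.32 on the other large arms (SD, n = 2), a difference of -2.27 percentage points ± 0.082. That difference was larger than the spread between replicates, but it did not hold against every arm: 2R, at 10.1% ± 0.15 (SD, n = 2), lay 0.19 points below X. Among regions that reached the median score of their list the difference was smaller, -1.36 points. X and the other arms were measured in the same 2 libraries, and an exact two-sided sign-flip permutation test on 2 libraries gave p = 0.5, the smallest it can give. With 2 libraries this test can call no difference, and its p says nothing for or against one.

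**Figure D1:**
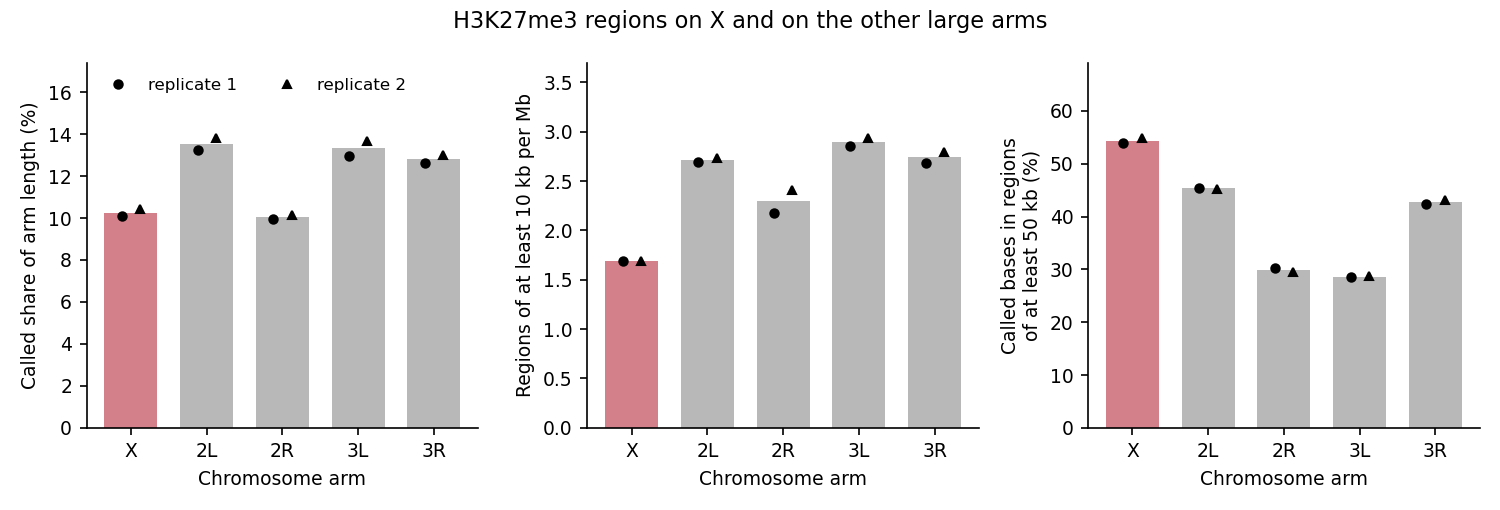
Called share of the arm length, broad regions per Mb and share of called bases in regions of at least 50 kb, for X (red) and the 4 other large arms (grey). Bars are means of 2 replicates and points are the replicates; X had 1.69 broad regions per Mb in both and 54.4% of its called bases in regions of at least 50 kb.

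The long domains of X were found at nearly the same places in both replicates. All 12 domains of 50 kb or more in either replicate met one of that size in the other. Each of the 38 broad regions of replicate 1 met a broad region of replicate 2, as did 36 of the 38 in the reverse direction. The bases called in both replicates formed 158 stretches with a sum of 2.11 Mb, of which the 10 longest held 1085 kb, or 51.4%. These 10 are given here with their score and their rank by score among the X regions of each replicate.

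The longest stretch, 158 kb, spanned 4266788 to 4424575. Its score was 2.30 in replicate 1 (rank 12 of 209) and 2.35 in replicate 2 (rank 10 of 198). Close by, a stretch of 73.0 kb (4447888 to 4520857) scored 2.68 in replicate 1 (rank 5) and 2.64 in replicate 2 (rank 6). Both domains lay in the window from 4 to 5 Mb, which was called over 25.0% in replicate 1 and 24.4% in replicate 2.

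The next in length, 135 kb from 7415489 to 7550935, had a far lower rank by score, with 1.63 in replicate 1 (rank 26) and 1.64 in replicate 2 (rank 25). In replicate 2 it was part of a single region of 153 kb from 7401063 to 7553761, which met 3 regions of replicate 1. In the series list the same domain ran from 7394336 to 7553686, and at 159 kb it was the widest X region of that list. By length, the leading domain of the series list was thus another than that of the replicates.

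The third stretch covered 128 kb from 20503040 to 20631325, with scores of 2.17 in replicate 1 (rank 18) and 2.20 in replicate 2 (rank 15). A stretch of 115 kb followed from 8616350 to 8731671, with scores of 1.96 (rank 22) and 2.02 (rank 20). It was accompanied by a 70.9 kb stretch from 8500647 to 8571525, shorter but ranked higher, at 2.76 (rank 4) and 2.82 (rank 3). In both replicates, regions less than 20 kb apart joined these domains into a chain of 5 regions, with a span of 231 kb in each.

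Between 16 and 19 Mb lay 3 more of the 10. The first spanned 114 kb (17199819 to 17313439), the second 105 kb (16012443 to 16117826) and the last 81.0 kb (18133090 to 18214064). Their scores in replicate 1 were 2.22, 2.13 and 2.45, and in replicate 2 they were 2.22, 2.12 and 2.35. The remaining ones were a stretch of 91.1 kb from 9581717 to 9672824, with scores of 2.82 (rank 3) and 2.78 (rank 4), and one of 84.3 kb from 5422559 to 5506877, with 2.46 (rank 10) and 2.56 (rank 7).

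The highest score on X belonged to a domain of middle length. The region from 17645684 to 17688078 in replicate 1 was 42.4 kb wide and scored 3.04, which gave it rank 1 on X and rank 5 in the whole list. In replicate 2 it ran from 17645666 to 17688087 and scored 2.99, ranked 1 on X and 3 in the list. Its neighbour from 17689294 to 17715067 in replicate 1, 25.8 kb wide, scored 2.86 and came second on X. In replicate 2 the neighbour, from 17689273 to 17715042, scored 2.82 and was second as well.

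These neighbouring domains were separated by a break that all 3 lists placed alike. It measured 1215 bp in replicate 1 (17688079 to 17689293), 1185 bp in replicate 2 (17688088 to 17689272) and 1184 bp in the series list. Breaks under 2 kb between broad neighbours on X were few, 4 in replicate 1 and 2 in replicate 2, and the 2 of replicate 2 both overlapped a break of replicate 1. The other shared one measured 514 bp in replicate 1 (7075469 to 7075982) and 1178 bp in replicate 2 (7074664 to 7075841). In the series list only 20 bp of it was left uncalled. The breaks of replicate 1 without a counterpart measured 145 bp (7136025 to 7136169) and 201 bp (20417524 to 20417724).

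High scores were not restricted to long domains. The shortest X regions within the top 10% of scores of their list were one and the same domain, 8.47 kb wide with a score of 1.71 in replicate 1 (13881272 to 13889745), and 8.62 kb wide with 1.82 in replicate 2 (13881110 to 13889731). A 10.1 kb region from 2031917 to 2042040 ranked 7th on X in replicate 1 with a score of 2.59. In replicate 2 it was 10.5 kb wide (2031933 to 2042480), ranked 8th and scored 2.54. Conversely, the lowest score of a broad region in replicate 1 was 0.895, for 13.0 kb from 20417725 to 20430700. In replicate 2 it was 0.875, for 11.1 kb from 14636689 to 14647744. Across X regions, width and score had a Spearman coefficient of 0.77 in replicate 1 and 0.82 in replicate 2, given as a description of the lists.

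**Figure D2:**
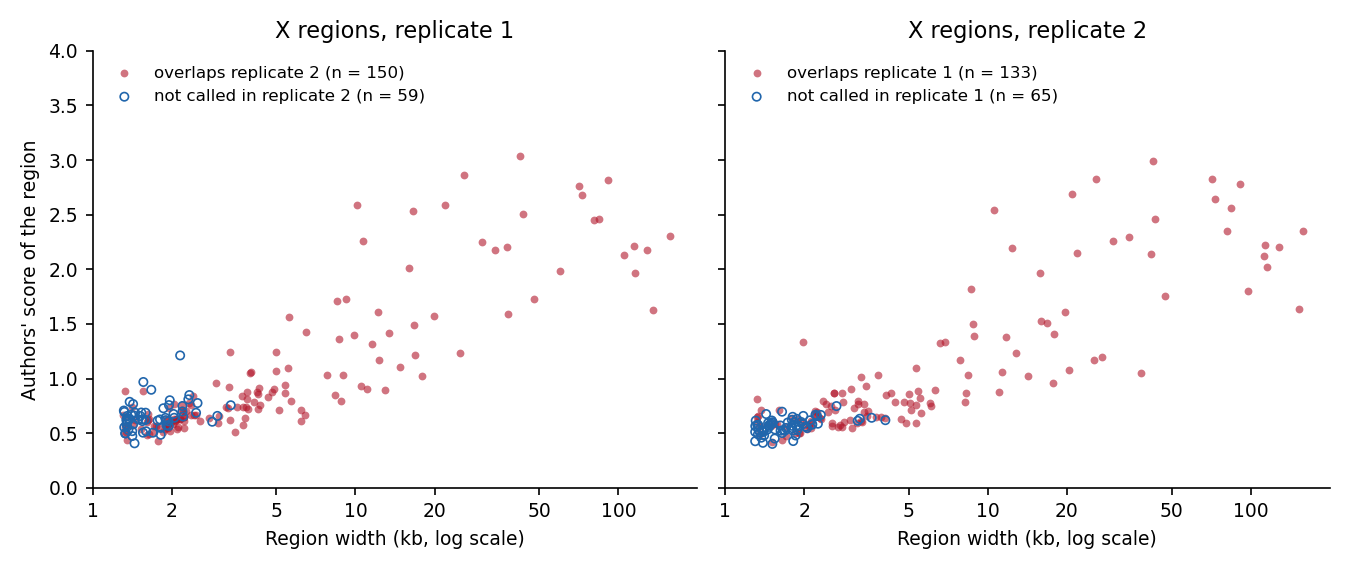
Width (log scale) and authors' score of each X region in replicate 1 (left, n = 209) and replicate 2 (right, n = 198), with filled points for regions that overlap the other replicate and open points for those that do not. The open points, 59 in replicate 1 and 65 in replicate 2, lie at widths under 5 kb, while the scores above 2.5 belong to matched regions.

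Scores on X stood higher within each list than those of the other large arms, at both ends of the width range. Among broad regions the median score was 2.07 on X against 1.46 on the other large arms in replicate 1, and 2.07 on X against 1.48 in replicate 2. Among regions under 2 kb it was 0.606 on X against 0.482 in replicate 1, and 0.568 on X against 0.475 in replicate 2. In the series list the medians of broad regions were 1.88 on X and 1.27 on the other large arms. Arm by arm, 3R came nearest among broad regions, with 1.84 in replicate 1 and 1.84 in replicate 2. These differences were not tested, and a stronger mark and the authors' scaling of the scores cannot be told apart.

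The lower end of the scores also began higher on X. Its lowest score was 0.407 in replicate 1 and 0.402 in replicate 2. On the 4 other large arms the lowest score ranged from 0.286 to 0.319 between arms in replicate 1, and from 0.273 to 0.318 in replicate 2. On these arms 61 of 1248 regions of replicate 1 (4.89%) and 61 of 1232 of replicate 2 (4.95%) scored below every X region. With those regions left out, an alternative chosen after the data were seen, the difference in density, X minus the other large arms, was -3.13 ± 0.23 regions per Mb (SD, n = 2). With all regions it was -3.76 ± 0.23 per Mb (SD, n = 2). Whether a threshold that acts differently on X has a part in the remaining difference was not tested.

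Along the arm, called sequence was concentrated in a minority of places. Of 22 windows of 1 Mb, the 3 fullest held 37.2% of the called bases of these windows. They were 7 to 8 Mb with 39.1% ± 2.1, 4 to 5 Mb with 24.7% ± 0.42 and 8 to 9 Mb with 21.5% ± 0.18 (SD, n = 2 each). The window from 20 to 21 Mb was nearly as full, at 21.4% ± 0.98 (SD, n = 2), and did not differ from 8 to 9 Mb beyond the spread between replicates. The fullest window also held the most regions, 32 in replicate 1 and 35 in replicate 2.

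Sparse windows made up a larger part of X than of the other large arms. In 9 of the 22 windows of X (40.9%) less than 5% was called in both replicates, against 23 of 97 windows (23.7%) on the other large arms. Under 1% was called in 4 windows of X (18.2%) and in 5 of the others (5.15%). The 3 emptiest windows of X were 11 to 12 Mb with 0.0899% ± 0.13, 6 to 7 Mb with 0.135% ± 0.0019 and 10 to 11 Mb with 0.330% ± 0.47 (SD, n = 2 each). In the emptiest, replicate 2 had a single region and replicate 1 had no call. The last of the 3 held 4 regions in replicate 1 and none in replicate 2, so whether it is called at all depended on the library. The median window share was 7.80% on X and 10.6% on the other large arms. Windows are not replicates, and this difference was not tested.

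**Figure D3:**
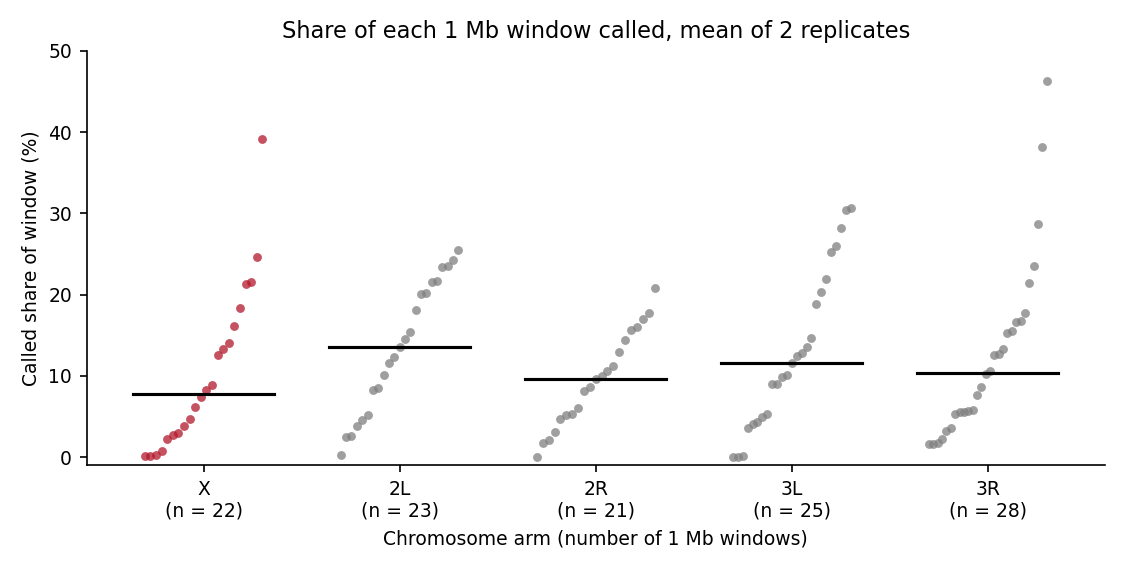
Called share of each 1 Mb window, mean of 2 replicates, sorted from low to high within X (red, n = 22) and each of the other large arms (grey), with the median as a black line. X has a fullest window of 39.1% and a median of 7.80%.

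Long stretches without a call in either replicate took up much of the arm. There were 9 of at least 500 kb on X, with a sum of 6.10 Mb or 27.2% of its length, against 27 with 21.7% of the length of the other large arms. The longest on X ran over 1043 kb from 16156625 to 17199697 and ended where the 114 kb domain began. Those next in length measured 875 kb (11216879 to 12091896), 796 kb (9672974 to 10468814), 616 kb (7721873 to 8337439) and 580 kb (13265084 to 13844843). The 796 kb stretch began where the 91.1 kb domain ended. None of these 5 was empty in the series list, which placed 248 to 3668 bp of calls in each. The longest uncalled stretch on the other large arms, 1824 kb, exceeded that of X. How well reads can be placed in these stretches was not examined, so a lack of calls need not be a lack of the mark.

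The replicates agreed on the bases of X more than on its regions. Of the X regions of replicate 1, 150 of 209 overlapped replicate 2, or 71.8% (95% Wilson interval 65.3 to 77.4), against 81.3% of all regions of that list. In replicate 2 it was 133 of 198, or 67.2% (60.4 to 73.3), against 75.5% of all regions of that list. The intervals cover counting error only. In bases, 2.11 Mb of the 2.48 Mb called in either replicate were called in both, or 85.1%, against 86.6% on the other large arms.

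The missing matches on X were all among regions under 5 kb. Every X region of 5 kb or more overlapped the other replicate, 56 in replicate 1 and 59 in replicate 2. So did all 401 and 423 regions of that width on the other large arms. Of those from 2 to 5 kb, 81.7% (58 of 71) of replicate 1 and 78.8% (52 of 66) of replicate 2 did so, against 94.0% and 85.3% on the other large arms. Under 2 kb the shares were 43.9% (36 of 82) and 30.1% (22 of 73) on X, against 58.0% and 46.7% on the other large arms. In the narrowest class the Wilson interval of X in replicate 1, 33.7 to 54.7, overlapped that of the other large arms, 53.4 to 62.5. In replicate 2 the intervals, 20.8 to 41.4 on X and 42.0 to 51.4 on the other large arms, did not overlap. Regions are not replicates, and the difference itself was not tested.

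**Figure D4:**
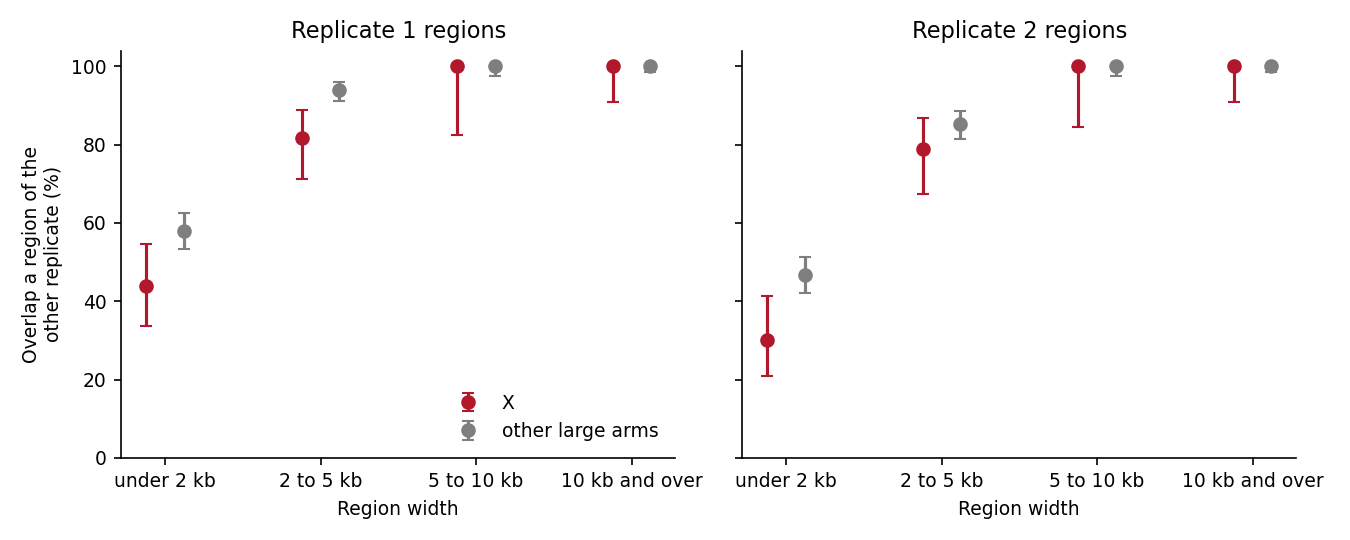
Share of regions that overlap the other replicate by at least 1 bp, by width class, for X (red) and the other large arms (grey) in replicate 1 (left) and replicate 2 (right), with 95% Wilson intervals. At 5 kb and above every region was matched, and under 2 kb X had 43.9% and 30.1%.

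Regions of X found in one replicate alone were short, and their median score was below that of matched regions of all widths. The 59 of replicate 1 were 1588 bp wide and scored 0.633 at the median, while the medians of its matched regions were 3740 bp and 0.759. The 65 of replicate 2 were 1666 bp wide and scored 0.570 at the median, while its matched regions had 3921 bp and 0.786. The median scores of unmatched regions were not below those of all X regions under 2 kb, 0.606 in replicate 1 and 0.568 in replicate 2. The widest in replicate 1 ran from 3904892 to 3908244 (3353 bp, score 0.756), and the widest in replicate 2 from 2407516 to 2411591 (4076 bp, score 0.619). In score, the leading one of replicate 1 was a 2152 bp region from 10500480 to 10502631, with 1.21. Replicate 2 reached 0.748, in a 2656 bp region from 5206139 to 5208794.

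Such unmatched regions made up most of the bases called in one replicate alone. On X these bases came to 147 kb in replicate 1 and 223 kb in replicate 2. In replicate 1, 70.1% of them lay in unmatched regions, 28.3% at the edges of matched ones and 1.63% in gaps between regions of the other replicate. In replicate 2 the shares were 52.6%, 39.6% and 7.81%.

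Where domains matched, their ends were placed closely. Of 100 X regions that matched one to one, 24 were broad in both replicates, and the median difference over their 48 ends was 107.5 bp. Of these ends, 37 (77.1%) differed by at most 200 bp, against 71.8% of the 316 ends of such pairs on the other large arms, where the median difference was nonetheless smaller, at 89 bp. Over one-to-one pairs of every width, 45.0% of the ends on X and 51.5% on the other large arms differed by at most 200 bp, with medians of 235 bp on X and 186.5 bp on the other large arms. The closest placement was that of the top-scoring domain, with both ends within 18 bp. The 158 kb domain had both ends within 29 bp. Among the broad pairs, the loosest was that of a region at 3694926 to 3705592 in replicate 1 and 3693433 to 3705782 in replicate 2, with a difference of 1493 bp at one end. Over X pairs of every width the largest difference was 2968 bp.

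Ranks by score were kept as well. Across the 100 pairs the scores had a Spearman coefficient of 0.89 and a Pearson r of 0.99, and across the 24 broad pairs the Spearman coefficient was 0.98. Across the 12 pairs under 2 kb in both it was 0.34. These values describe regions of 2 libraries, and regions are not independent.

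Some domains were called whole in one replicate and in pieces in the other. Of the 38 broad X regions of replicate 2, 13 (34.2%) met 2 or more regions of replicate 1, while 2 of the 38 of replicate 1 (5.26%) met 2 or more of replicate 2. On the other large arms the shares were 32.2% and 14.6%. Besides the 153 kb region described above, the region of replicate 2 from 16005119 to 16117826 met 3 regions of replicate 1, as did those from 20399754 to 20438076, from 16124267 to 16146161 and from 14636689 to 14647744. The second of these, 38.3 kb with a score of 1.05, corresponded to replicate 1 regions of 8346 to 17882 bp with scores of 0.849 to 1.02.

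Many X regions lay in groups, some without a broad region and some with broad regions among them. When X regions under 20 kb apart were joined, replicate 1 gave 68 chains, 33 of them single regions, and replicate 2 gave 64, with 32 single. Single regions were thus 48.5% and 50.0% of the chains on X, against 41.0% and 41.0% on the other large arms. A chain held 3.07 and 3.09 regions on average on X, against 3.24 and 3.28 on the other large arms, so grouping was not particular to X. The most populous chain of replicate 1, 17 regions over 239 kb from 7328439 to 7567331, surrounded the 135 kb stretch. The same span held 14 regions in replicate 2. Another chain of replicate 1, from 15498563 to 15588795, had 14 regions with none wider than 5.12 kb. In replicate 2 that span held 14 regions too, up to 8.18 kb wide, and 56.7% of it was called, against 46.6% in replicate 1. Another, of 13 regions from 18401502 to 18523959, was called over 60.9% in replicate 1 and 59.7% in replicate 2, with 10 regions in replicate 2.

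The series list called 2.81 Mb of X, or 12.5% of the arm, in 361 regions, more than the 2.48 Mb called in either replicate. Of its bases on X, 12.3% lay outside both replicates. It is not independent of the replicates, and the sources used here do not say how it was made from them. Of its X regions, 108 (29.9%, 95% Wilson interval 25.4 to 34.8) overlapped both replicates, against 37.0% of the regions of the whole list. These 108 held 84.1% of its bases on X. Replicate 1 alone was met by 46 regions (12.7%, against 9.92% over the whole list). Replicate 2 alone was met by 54 (15.0%, against 12.4%). Neither was met by 153 (42.4%), which held 7.91% of the bases. Over the whole list 40.7% of the regions met neither replicate and held 7.39% of the bases, so for this class the X shares lay close to those of the list.

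Each of the 41 broad series-list regions on X met both replicates. The same held over the whole list, where no region that missed a replicate was wider than 8255 bp. Regions that overlapped both had medians of 6995.5 bp in width and 0.697 in score, and those that overlapped neither had 1281 bp and 0.412. Of the 153, 79 were narrower than any X region of the replicates, as were 398 of the 754 such regions on the other large arms. The widest of the 153 was a 3834 bp region from 332934 to 336767 (score 0.379). The highest score among them was 1.94, for 1030 bp from 19031391 to 19032420, and the next was 1.13, for 1030 bp from 5419143 to 5420172. Of the 153, 31 (20.3%) lay within 20 kb of a broad region of the list. Conversely, 3 X regions of replicate 1 and 1 of replicate 2 lay outside the series list. The counts near broad regions and outside the series list are given for X only, so they do not set X apart from other arms.

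**Figure D5:**
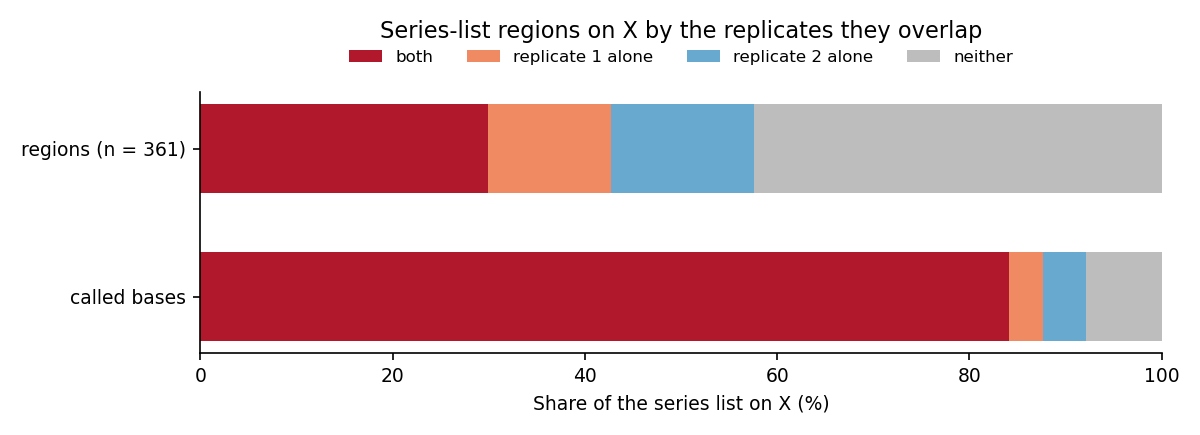
Share of the 361 series-list regions on X (top) and of their called bases (bottom) that belongs to regions overlapping both replicates, replicate 1 alone, replicate 2 alone or neither. Regions that overlap both replicates are 29.9% of the regions and 84.1% of the bases.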

How the data were processed

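The submitters' processing notes list Bowtie 0.12.7, an aligner of short reads. The deposited files are 3 lists of enriched regions in GFF3 form, 1 for each ChIP library and 1 for the series, with the build FlyBase Release 5 per the file headers. The score in the deposited lists is 1 positive number per region; the sources used here do not give its scale, the region caller or the threshold. The lists hold no read counts, so depth is unknown. Scores were ranked and their levels compared only within a list. Between the replicate lists, the scores of paired regions were correlated.

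Overlap was counted from 1 bp. Widths, shares of arm length, 1 Mb windows (a last window under 500 kb left out), chains (regions less than 20 kb apart) and one-to-one pairs were computed with Python 3.11.15, numpy 2.4.6, pandas 2.3.3, scipy 1.17.1 and matplotlib 3.10.9. The code was tested on simulated data and recovered 20 of 20 simulated pairs of lists. In these lists no region could meet several regions of the other list, so domains called in pieces were not part of that test. Regions were named by fixed rules, namely leading length, score, window, gap, chain or break. The X regions, rules and limits were chosen with earlier results of these data known. Lists of the inputs and gene positions of Release 5 were not analysed here.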

Additional observations from a re-analysis of the deposited data

How the results depend on the processing

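Of 57 alternative values, 36 stayed within a tolerance, 20 moved further and 1 changed sign. The tolerance was an unchanged sign for differences between arms, 1 SD between replicates for values per library, the 95% interval for shares of regions or windows and for the Spearman coefficient, 1.5 times for counts of chains, and for shared bases the gap between the shares of each replicate. Some values could not leave the tolerance. With 2 replicates, leaving 1 out moves a value per library by less than 1 SD. A limit at the lowest score on X removed no X region, so the shares of matched X regions were fixed. The difference in called share, X minus other arms, changed sign against 2R alone, at 0.19 percentage points; it was -3.29 to -2.57 points against the other 3 arms singly and -1.36 for regions that reach their list's median score. The difference in regions per Mb stayed negative under each alternative run, between -6.22 and -1.44. That difference was not run at or above the median score, for regions of at least 5 kb, or after merging. The median score of their list was reached by 72.2% and 62.6% of X regions in replicates 1 and 2. On the other large arms 45.7% and 47.2% reached it. By these shares, X held more such regions per Mb than the other large arms in replicate 1 and fewer in replicate 2. The negative sign thus did not hold in both replicates under that limit. At or above the median score X was called over 9.69% with 6.13 regions per Mb, 84.5% of bases lay in broad regions, and 73.4% of replicate 2 regions were matched. With regions of at least 5 kb in both lists the values were 8.79%, 2.56 per Mb, 92.9% and 79.7% of replicate 1 and replicate 2 regions matched, 91.6% of bases shared and 59.7% of series-list regions in both replicates. Fewer regions enter under both limits by construction. Merging regions under 1 kb apart gave 7.02 per Mb and 83.9% of bases in broad regions, and a broad limit of 20 kb gave 71.0%. Overlap of 50% of both regions, stricter by construction, gave 53.1% and 56.1% of replicate 1 and 2 regions and 20.8% of the series list, with a Spearman coefficient of 0.94 for scores. Among pairs by 1 bp overlap that were broad in both replicates, this coefficient was 0.98. Joining under 10 kb or under 50 kb gave a mean of 83.5 or 54.5 chains, against 66 at 20 kb, and windows of 500 kb gave 46.7% with less than 5% called, against 40.9% at 1 Mb. Leaving out a replicate, X was called over 10.1% to 10.4%, with 8.83 to 9.32 regions per Mb, 79.1% to 80.8% of bases in broad regions, a difference in called share of -2.32 to -2.21 points and in regions per Mb of -3.92 to -3.60. With 1 replicate asked for, 42.7% to 44.9% of the series list was matched, a weaker condition by construction. No paired analysis was possible because nothing here sets ChIP against input, the groups that share replicate numbers; X and the other arms were compared within each library. What depth limits was not measured, since depth is unknown.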

Other observations

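Small-region groups near the distal end of X differed between the replicates. From 1427742 to 1508230, replicate 1 held 13 regions, none wider than 5.71 kb, with scores of 0.407 to 0.841, and 37.3% of the span was called. Replicate 2 held 4 regions there with scores of 0.691 to 0.903, and 13.7% was called. The series list held 20 regions over 58.5% of the same span. From 260274 to 357024 the order was turned round: 16 regions and 43.5% called in replicate 2, against 8 regions and 24.1% in replicate 1, and 18 regions over 66.1% in the series list. Both spans came from the rule on chains with the most regions, and with 1 list per library the differences were not tested.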
